A study of Rattus norvegicus with 4 samples.

Results

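The 9 genes described here are Tph2, Slc6a4 and Fev, which mark serotonin neurons, and the serotonin receptor genes Htr1a, Htr1b, Htr2a, Htr2c, Htr4 and Htr7. They were chosen by symbol, with earlier results of these data known, and all 9 were found among the 32883 genes of the count matrices. The matrices hold single nuclei from the midbrain region called the ventral tegmental area, taken from Sprague-Dawley rats of 90 to 120 days that had received no experimental treatment. Tissue between 4.92 and 6.46 mm behind bregma was dissected from 6 rats per sex, and each of the 4 libraries (female 1, female 2, male 1 and male 2) pooled nuclei of 3 rats of a sex. The individual rat cannot be recovered from a pool, so a library is the replicate here and every n of 4 counts libraries.

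Serotonin is made from tryptophan by tryptophan hydroxylase (Tph2 in brain) and by aromatic amino acid decarboxylase (Ddc), loaded into vesicles by Slc18a2 and taken back up by the serotonin transporter Slc6a4. Fev, also called Pet-1, is an ETS-family transcription factor of serotonin neurons. The cell bodies of these neurons lie in the raphe nuclei, and the ventral tegmental area receives their axons. The receptors fall into families by G protein: Htr1a and Htr1b couple to Gi, Htr2a and Htr2c to Gq, and Htr4 and Htr7 to Gs. Htr2c on local GABA neurons is a classical route by which serotonin lowers dopamine cell firing.

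Nuclei were assigned to gates by their raw UMIs (unique molecular identifiers, each counting a captured RNA molecule), using none of the 9 genes. The dopamine gate (at least 2 UMIs of Th and 2 of Slc6a3) held 305 nuclei, with 67 to 88 per library. The Slc26a7 gate (at least 2 UMIs of Slc26a7 and 2 of Gad2, fewer than 2 of Gad1) held 102, with 17 to 33 per library. GABA nuclei (at least 2 UMIs of Gad1) divided into 244 with a Gata3 UMI and 923 without, and the glutamate gate (at least 2 UMIs of Slc17a6, 0 of Gad1) held 1581. Together these 5 gates held 3155 nuclei, 15.3% of the 20620 kept. Gates for glia held 9493 oligodendrocytes, 885 oligodendrocyte precursors, 2164 astrocytes and 793 microglia, and 2783 nuclei with neuronal genes stood in no gate and are called other neurons. Total UMIs per library ranged from 19714338 to 25824289, and the median nucleus held 7088 to 9004 UMIs in the neuron gates but 1338 to 3132.5 in the glial gates. Any pair of libraries shared 4 to 9 barcodes.

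The dopamine gate carried the markers its name calls for: the summed level of 8 dopamine genes (Slc18a2, Ddc, Drd2, Aldh1a1, Chrna6, Slc10a4, Ret and Pitx3) was 2804 to 3437 CPM (counts of a gene per 1000000 UMIs of the gate in a library). It was 1301 to 2073 CPM in the Slc26a7 gate and 42.9 to 54.2 CPM in the GABA gate with Gata3. Of the dopamine gate, 8.85% of nuclei had a Gad2 UMI and 6.23% a Slc26a7 UMI.

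The UMIs behind the 9 genes were very unequal. Htr2c had 28994 UMIs in 2577 nuclei, Htr4 6559 in 2474 and Htr2a 1816 in 1026. The other 6 genes were sparse: Tph2 had 237 UMIs in 71 nuclei, Htr7 87 in 87, Slc6a4 78 in 35, Htr1a 64 in 63, Htr1b 42 in 41 and Fev 7 in 7. Only Htr2a, Htr2c and Htr4 passed the count filter of the tests between gates, so those tests speak for 3 of the 9 genes. Capture near the 3' end or at internal A-rich stretches differs from gene to gene, so UMI totals are not compared between genes as levels.

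RefSeq start regions (250 bases before to 50 after the annotated start, build GRCr8) were matched for 5 of the 9 genes. Those of Tph2, Fev and Htr2c are shown because Tph2 is the gene by which nuclei are counted below, Fev is a factor of serotonin neurons and Htr2c is the receptor that separated the gates most. Capitals mark GATA or its reverse complement TATC, the core that Gata2 and Gata3 bind, and GGAA or TTCC, the core of ETS factors such as Fev. The Tph2 region lies at chr7:52675590-52675889 on the minus strand, that of Fev at chr9:83891669-83891968 on the minus strand and that of Htr2c at chrX:115452940-115453239 on the plus strand.
Tph2: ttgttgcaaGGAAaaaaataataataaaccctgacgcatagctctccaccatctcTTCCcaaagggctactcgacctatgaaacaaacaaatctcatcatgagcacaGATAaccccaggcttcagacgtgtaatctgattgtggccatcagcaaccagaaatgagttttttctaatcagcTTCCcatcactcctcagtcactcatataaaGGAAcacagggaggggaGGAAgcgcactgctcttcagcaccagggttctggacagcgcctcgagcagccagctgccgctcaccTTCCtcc
Fev: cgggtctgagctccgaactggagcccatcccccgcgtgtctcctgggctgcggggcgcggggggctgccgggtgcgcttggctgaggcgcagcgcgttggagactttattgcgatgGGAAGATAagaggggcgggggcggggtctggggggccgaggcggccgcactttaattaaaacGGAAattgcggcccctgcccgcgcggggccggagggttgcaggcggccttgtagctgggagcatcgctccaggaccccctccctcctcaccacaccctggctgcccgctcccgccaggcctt
Htr2c: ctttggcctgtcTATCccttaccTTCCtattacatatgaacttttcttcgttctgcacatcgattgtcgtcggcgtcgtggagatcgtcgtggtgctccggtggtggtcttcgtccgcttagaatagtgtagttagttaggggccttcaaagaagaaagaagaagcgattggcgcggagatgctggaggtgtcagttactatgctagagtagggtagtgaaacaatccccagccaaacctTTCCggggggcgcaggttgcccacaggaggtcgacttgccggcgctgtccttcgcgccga
Each of the 3 regions held 1 GATA match, and Tph2 held 6 GGAA matches against 2 in Fev and 2 in Htr2c. Of the regions not shown, that of Htr1b also held 6 GGAA matches and 1 GATA match, and that of Htr7 held 0 of both. In the Fev region a GGAA and a GATA match adjoin without overlapping. Both cores are short and common: 60.5% of 33469 promoters of the same length held a GATA match and 95.8% a GGAA match. The mean per promoter was 1.14 GATA and 3.55 GGAA matches, so a match is a description of the letters only.

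Nuclei with Tph2 were rare in these libraries, and not all of them were neurons. Counting nuclei with at least 2 Tph2 UMIs found 11 of 20620: 2 in female 1 (0.0357%, Wilson 95% interval 0.0098 to 0.130%), 5 in female 2 (0.101%, 0.0433 to 0.237%), 4 in male 1 (0.114%, 0.0442 to 0.292%) and 0 in male 2. For the count of 0 among the 6564 nuclei of male 2 the Wilson 95% interval reaches 0.0585%. Setting that 0 at 3 nuclei instead gives 0.0457%. These intervals cover counting error only. The mean share was 0.0685% ± 0.0463 (SD, n = 2) in females and 0.0568% ± 0.0803 (SD, n = 2) in males, exact two-sided permutation p = 1, where 2 libraries against 2 cannot go below 0.33. The 11 nuclei held 177 of the 237 Tph2 UMIs, or 74.7%. These shares and UMIs include nuclei that stood in glial gates, described below, so they are not shares of serotonin neurons.

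Of the 11, 6 carried Slc6a4 and made up a coherent group from 3 libraries. Their Tph2 UMIs were 35 and 27 in female 1, 36, 30 and 7 in female 2, and 26 in male 1, and their Slc6a4 UMIs, in the same order, were 10, 8, 11, 8, 4 and 8. All 6 also had UMIs of Ddc (9 to 41), Slc18a2 (2 to 7), Gch1 (1 to 5), the enzyme that starts synthesis of the cofactor of Tph2, and Maob (1 to 4), a monoamine oxidase found in serotonin neurons. The lineage factor Lmx1b was detected in 5 of the 6, Gata2 in 4 and Gata3 in 4, and Slc17a8, the vesicular glutamate transporter of some raphe neurons, in 4. None had a UMI of Th, Slc6a3, Slc17a6 or Slc32a1, but 1 of them, from female 1, had 1 of Gad1 and 3 of Gad2. Their depths ran from 6562 to 20503 UMIs, and all 6 stood among the other neurons, in none of the 5 neuron gates.

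Fev itself was seen in only 2 of these 6 nuclei, with 1 UMI in each. All 7 Fev UMIs of the series were single UMIs, 4 of them in other neurons and 3 in the oligodendrocyte gate, so at this depth a nucleus that lacks Fev cannot be told from one where it was missed. A seventh neuron, from male 1, had 3 Tph2 UMIs and no Slc6a4, but 31 of Slc17a8, 5 of Lmx1b and 3 of Slc18a2. The remaining 4 nuclei were of another kind. The oligodendrocyte gate held 3 with 4, 2 and 2 Tph2 UMIs, 30 to 53 Mbp UMIs and none of Slc6a4, Ddc, Slc18a2 or Lmx1b. The astrocyte gate held the last, with 5 Tph2 UMIs beside 2 of Ddc, 4 of Maob, 1 of Th and 11 of Aqp4.

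**Figure D1:**
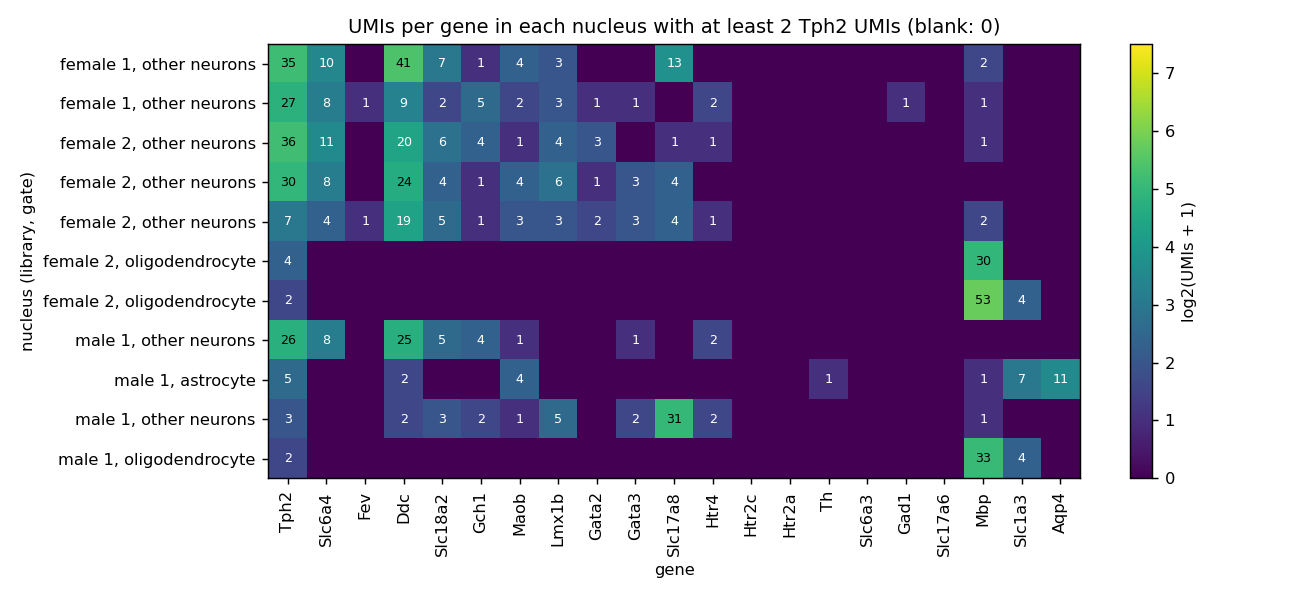
Each row is 1 of the 11 nuclei with at least 2 Tph2 UMIs, labelled by library and gate, each column a gene, and the number and colour (log2 of UMIs + 1) give the raw UMIs, blank for 0. The 6 rows with Slc6a4 hold Ddc, Slc18a2, Gch1 and Maob together, and the 3 oligodendrocyte rows hold Mbp at 30 to 53 UMIs instead.

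Of the 6 receptor genes, Htr4 was the only one found in these nuclei, with 1 or 2 UMIs in 5 of the 7 Tph2 neurons. No UMI of Htr1a, Htr1b, Htr2a, Htr2c or Htr7 was found in any of the 11 nuclei. Htr2c had UMIs in 43.4% of the gated neurons, whose median depth was 8028 UMIs against 9191 in the 11 nuclei. Only the 7 Tph2 neurons compare with that share. The rest of the 11 stood in glial gates, and Htr2c was detected in only 1.17% of the oligodendrocyte gate. For Htr1a, the autoreceptor of serotonin neurons, a count of 0 in the 7 Tph2 neurons does not tell absence from missed capture. In gated neurons 1.14% had a UMI, which does not give how often it would be captured in serotonin neurons. Among genes detected in at least 25% of the 11 nuclei, the largest ratios of summed CPM to the gated neurons belonged to Slc6a4 (454 against 0.391 CPM), Anln, Slc17a8 (491 against 6.33 CPM), Gchfr (in 7 nuclei), Rasgrp3, Folh1, Galnt6, Cthrc1, Zcchc24 and LOC688672. Gchfr encodes the feedback regulator of Gch1. Anln, Rasgrp3, Folh1, Galnt6, Cthrc1, Zcchc24 and LOC688672 were each detected in 3 of the 11. The 11 include nuclei of the oligodendrocyte and astrocyte gates, whereas the comparison holds gated neurons only. The oligodendrocyte genes Mag and Mog were likewise in 3 of the 11, and in 0 of the 6 with Slc6a4. These ratios therefore do not mark genes of Tph2 neurons by themselves.

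Other neurons held 176 of the 237 Tph2 UMIs, and the level there was 16.8, 20.4, 9.1 and 1.1 CPM in female 1, female 2, male 1 and male 2. These values include the 7 Tph2 neurons, which held 164 of the 176. The 12 UMIs outside them were 0, 3, 3 and 6 in the same order of libraries. Other neurons also held 56 of the 78 Slc6a4 UMIs, 49 of them in the 7 Tph2 neurons and 7 outside. The 5 neuron gates together held 16 Tph2 UMIs, 11 of Slc6a4 and 0 of Fev, and the dopamine gate held 2 of Tph2 and 0 of Slc6a4.

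Among the receptors, each of Htr2c, Htr4 and Htr2a had its own order over the neuron gates. Htr2c was highest in GABA nuclei with Gata3 and nearly missing from the dopamine gate, Htr4 was highest in the same GABA nuclei but also present in the dopamine gate, and Htr2a was highest in the Slc26a7, glutamate and dopamine gates and lowest in both GABA gates. UMIs were summed per library and gate and tested with edgeR's quasi-likelihood test with the library as a block and Benjamini-Hochberg adjustment over 9901 genes in each of 10 contrasts. Of the 30 tests (3 genes, 10 contrasts), 20 had an adjusted p under 0.05, where 18.4% of all gene tests passed. By contrast, the share of all genes that passed was 18.6% for dopamine against Slc26a7 nuclei, 31.3% against GABA with Gata3, 32.1% against GABA without Gata3 and 28.9% against glutamate. It was 10.9%, 14.3% and 11.8% for Slc26a7 nuclei against the same 3 gates, 11.0% between the GABA gates, and 9.76% and 15.0% for GABA with and without Gata3 against glutamate.

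**Figure D2:**
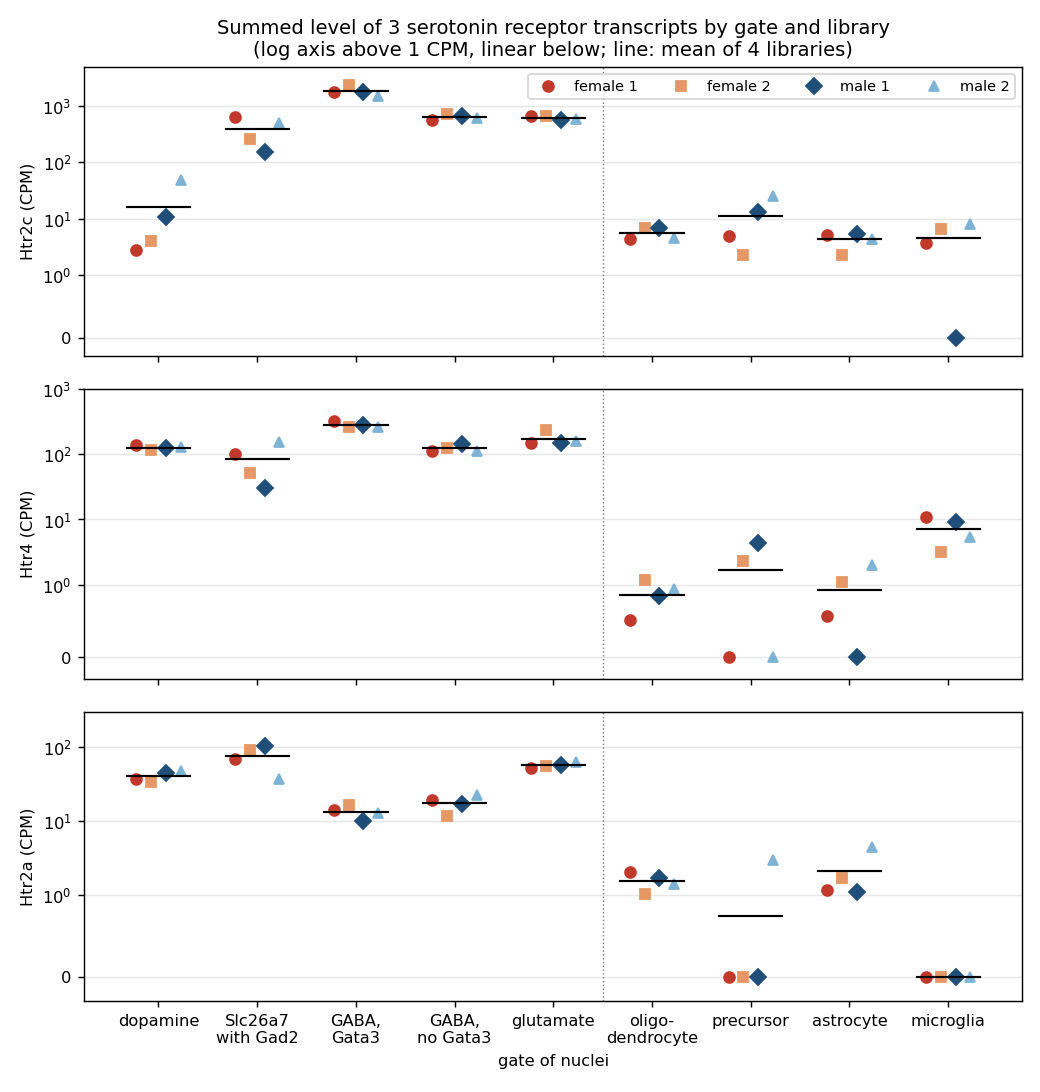
CPM of Htr2c, Htr4 and Htr2a (rows; log axis above 1 CPM, linear below) in 5 neuron gates and 4 glial gates, 1 point per library and a line at the mean of 4 libraries. For Htr2c the 4 GABA libraries with Gata3 sit between 1505 and 2331 CPM and the 4 dopamine libraries between 2.7 and 47.8 CPM.

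Htr2c in GABA nuclei with Gata3 was 1792, 2331, 1741 and 1505 CPM in female 1, female 2, male 1 and male 2. Without Gata3 it was 555, 724, 671 and 609 CPM, and in the glutamate gate 656, 663, 575 and 580 CPM. The lowest library with Gata3 was more than the highest library of either of these gates. The fitted difference was 1.48 ± 0.20 on the log2 scale (SE; 2.80-fold, edgeR adjusted p = 3.56e-06) against GABA nuclei without Gata3 and 1.55 ± 0.20 (2.92-fold, adjusted p = 2.16e-06) against glutamate, higher in 4 of 4 libraries in both. DESeq2 gave nearly the same sizes with larger errors, and its adjusted p were 0.0672 and 0.0554. The difference between GABA nuclei without Gata3 and glutamate nuclei was within its error (0.06 ± 0.20, edgeR adjusted p = 0.903). The 4 choroid plexus and ependyma genes checked (Ttr, Kl, Folr1 and Clic6) summed to 0 to 4.5 CPM per library in the GABA gate with Gata3.

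The difference between the GABA gates lay both in how many nuclei had Htr2c and in how much each had. With every nucleus thinned to 2000 UMIs, to remove depth, Htr2c was detected in 75.9% ± 7.65 (SD, n = 4) of GABA nuclei with Gata3, 34.5% ± 2.11 of those without and 33.9% ± 3.16 of glutamate nuclei. Unthinned, it was found in 206 of 244, 405 of 923 and 690 of 1581 nuclei. The thinned share was 0.92% ± 0.34 in oligodendrocytes, which serve here as the level of stray UMIs and whose median depth before thinning was 2256 UMIs. Among nuclei with any Htr2c UMI, the median was 17 UMIs with Gata3 and 8 in the other 2 gates, and 61.5% of all nuclei with Gata3 had 10 or more against 18.5% without Gata3 and 20.1% of glutamate nuclei. The highest nucleus of the series, with 110 UMIs, was a GABA nucleus with Gata3 in female 2.

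In the dopamine gate Htr2c was 2.7, 4.0, 10.9 and 47.8 CPM in female 1, female 2, male 1 and male 2. Every one of these was below every library of the other 4 neuron gates, and the dopamine gate was 103-fold lower than GABA nuclei with Gata3 (-6.69 ± 0.34, log2 ± SE, edgeR adjusted p = 1.16e-15) and 35.3-fold lower than glutamate nuclei (-5.14 ± 0.34, adjusted p = 4.92e-13). The thinned share was 2.38% ± 1.70 (SD, n = 4). Only 20 of 305 dopamine nuclei had a Htr2c UMI, and 17 of the 20 had 1 to 3. The other 3 had 13, 9 and 9 UMIs, all in male 2, and held 31 of that library's 37. None of the 3 had a UMI of Slc26a7 or Gad2, 2 of them had Slc17a6 (1 and 2 UMIs), and without them male 2 stood at 8.09 CPM. The 265 dopamine nuclei free of both Slc26a7 and Gad2 held 48 of the gate's 51 Htr2c UMIs. Without male 2 the differences were larger, -8.21 ± 0.38 from GABA nuclei with Gata3 and -6.60 ± 0.40 from glutamate nuclei. Where nuclei that met the conditions of several gates were counted in each, they were -5.85 ± 0.36 and -4.26 ± 0.36.

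Nuclei with Slc26a7 and Gad2, which share dopamine genes with the dopamine gate, did have Htr2c, at 631, 257, 155 and 504 CPM in female 1, female 2, male 1 and male 2. These libraries were more spread for their mean than those of the larger GABA and glutamate gates (387 ± 219 CPM, SD, n = 4), but all lay above the highest dopamine library, and the dopamine gate was 22.9-fold lower (-4.52 ± 0.41, edgeR adjusted p = 9.15e-10). That difference was -3.86 ± 0.42 without female 1, -5.79 ± 0.48 without male 2 and -3.65 ± 0.43 with overlapping gates, and was called each time. Of 102 nuclei 48 had a Htr2c UMI, and the thinned share was 30.8% ± 11.6 (SD, n = 4). Against GABA nuclei with Gata3 the Slc26a7 gate was lower by a log2 value of -2.17 ± 0.25 (adjusted p = 1.01e-07). Its differences from GABA nuclei without Gata3 (-0.69 ± 0.25, adjusted p = 0.0672) and from glutamate nuclei (-0.63 ± 0.25, adjusted p = 0.112) did not pass with all 4 libraries. Both were called without female 1 (-1.08, edgeR adjusted p = 0.00739, and -0.92, 0.0282), without male 2 (-0.87, 0.0217, and -0.81, 0.0405) and with no filter on low counts (-0.75, 1.54e-11, and -0.71, 3.28e-10).

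**Figure D3:**
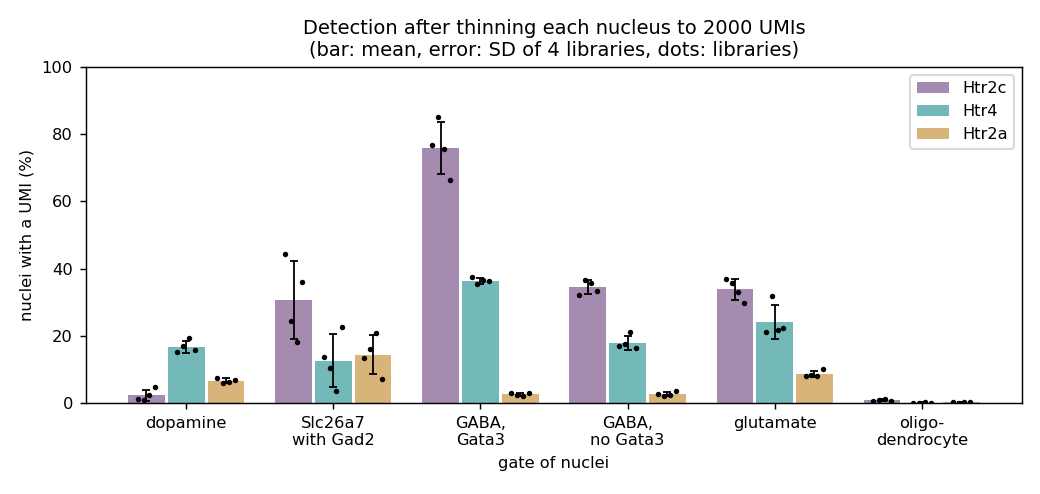
Share of nuclei (%) with a UMI of Htr2c, Htr4 and Htr2a after thinning each nucleus to 2000 UMIs, in 5 neuron gates and in oligodendrocytes; bars are means and error bars SDs of 4 libraries, dots the libraries. Htr2c reaches 75.9% in GABA nuclei with Gata3 and 2.38% in the dopamine gate, where Htr4 is at 16.8%.

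Htr4, the Gs-coupled receptor, was not missing from dopamine nuclei. It was 139, 115, 125 and 128 CPM in the dopamine gate (female 1, female 2, male 1, male 2), close to the 114, 125, 145 and 112 CPM of GABA nuclei without Gata3. These 2 gates overlapped, and the fitted difference was 0.09 ± 0.17 (edgeR adjusted p = 0.74). GABA nuclei with Gata3 were again the highest, at 322, 258, 286 and 259 CPM, above every library of the other gates. They exceeded the dopamine gate 2.07-fold (dopamine minus GABA with Gata3 -1.05 ± 0.17, adjusted p = 2.04e-05), GABA nuclei without Gata3 2.20-fold (1.14 ± 0.16, adjusted p = 4.02e-06) and glutamate nuclei 1.62-fold (0.69 ± 0.15, adjusted p = 0.00173). Without female 1 the last became 0.58 ± 0.18 (adjusted p = 0.0563).

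Glutamate nuclei had 151, 234, 147 and 162 CPM of Htr4, and female 2 stood apart above the other 3 libraries. They were higher than GABA nuclei without Gata3 by a small step (GABA minus glutamate -0.44 ± 0.14, edgeR adjusted p = 0.0279), which did not pass without female 1, female 2 or male 2 (adjusted p = 0.0859, 0.187 and 0.0822). The Slc26a7 gate varied most, at 102, 51.5, 30.1 and 156 CPM, on 86 UMIs. It was below GABA nuclei with Gata3 (-1.60 ± 0.25, adjusted p = 1.63e-05) and below glutamate nuclei (-0.91 ± 0.24, adjusted p = 0.0109; 0.146 without female 2 and 0.0586 without male 1). Its differences from the dopamine gate and from GABA nuclei without Gata3 did not pass (dopamine minus Slc26a7 0.56 ± 0.27, adjusted p = 0.170; Slc26a7 minus GABA without Gata3 -0.47 ± 0.26, adjusted p = 0.285). Without male 2 both were called (1.06, edgeR adjusted p = 0.0291, and -1.02, 0.0325), as they were with no filter on low counts (0.58, 0.0192, and -0.53, 0.0298). Dopamine minus glutamate was -0.35 ± 0.16 (adjusted p = 0.102), and was called with no filter (-0.41, 0.00144) and with overlapping gates (-0.43, 0.0321). Thinned shares were 36.4% ± 0.88 (SD, n = 4) of GABA nuclei with Gata3, 24.2% ± 5.05 of glutamate, 18.0% ± 2.09 of GABA without Gata3, 16.8% ± 1.81 of dopamine and 12.7% ± 7.83 of Slc26a7 nuclei, beside 0.17% ± 0.10 of oligodendrocytes.

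Htr2a, Gq-coupled like Htr2c, was lowest in the GABA gates, unlike Htr2c and Htr4. It was 68.3, 90.1, 103 and 36.2 CPM in the Slc26a7 gate, 51.6, 54.4, 57.2 and 61.7 CPM in the glutamate gate and 36.9, 33.2, 43.6 and 46.5 CPM in the dopamine gate. The GABA gates were lower and overlapped each other, at 14.0, 16.5, 9.9 and 12.5 CPM with Gata3 and 18.8, 11.7, 16.7 and 22.4 CPM without. Every library of the former 3 gates lay above every library of both GABA gates. All 6 of the contrasts between them passed, from 1.30 ± 0.22 (dopamine minus GABA without Gata3, 2.46-fold, edgeR adjusted p = 1.51e-05) to 2.51 ± 0.32 (Slc26a7 minus GABA with Gata3, 5.69-fold, adjusted p = 8.14e-07).

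Among the 3 higher gates the order of Htr2a was less sure. The dopamine gate was below the Slc26a7 gate (-0.84 ± 0.25, edgeR adjusted p = 0.0167) in 3 of 4 libraries, with male 2 the exception, and the call was lost without female 1, female 2 or male 1 (adjusted p = 0.0697, 0.143 and 0.149). Dopamine minus glutamate was -0.41 ± 0.17 (adjusted p = 0.0678) and Slc26a7 minus glutamate 0.43 ± 0.22 (adjusted p = 0.252). The first was called with no filter on low counts (-0.47, edgeR adjusted p = 0.0235) and with no Gad2 or Slc32a1 in the glutamate gate (-0.52, 0.0210), the second without male 2 (0.75, 0.0241). The 2 GABA gates differed by -0.37 ± 0.31 (adjusted p = 0.546). Thinned shares were 14.5% ± 5.67 (SD, n = 4) in the Slc26a7 gate, 8.67% ± 0.99 in glutamate, 6.66% ± 0.70 in dopamine, 2.78% ± 0.58 in GABA without Gata3 and 2.70% ± 0.50 with Gata3, beside 0.27% ± 0.03 in oligodendrocytes. Glutamate nuclei held 44.7% of all Htr2a UMIs, and the highest nucleus, with 19, was one of them.

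**Figure D4:**
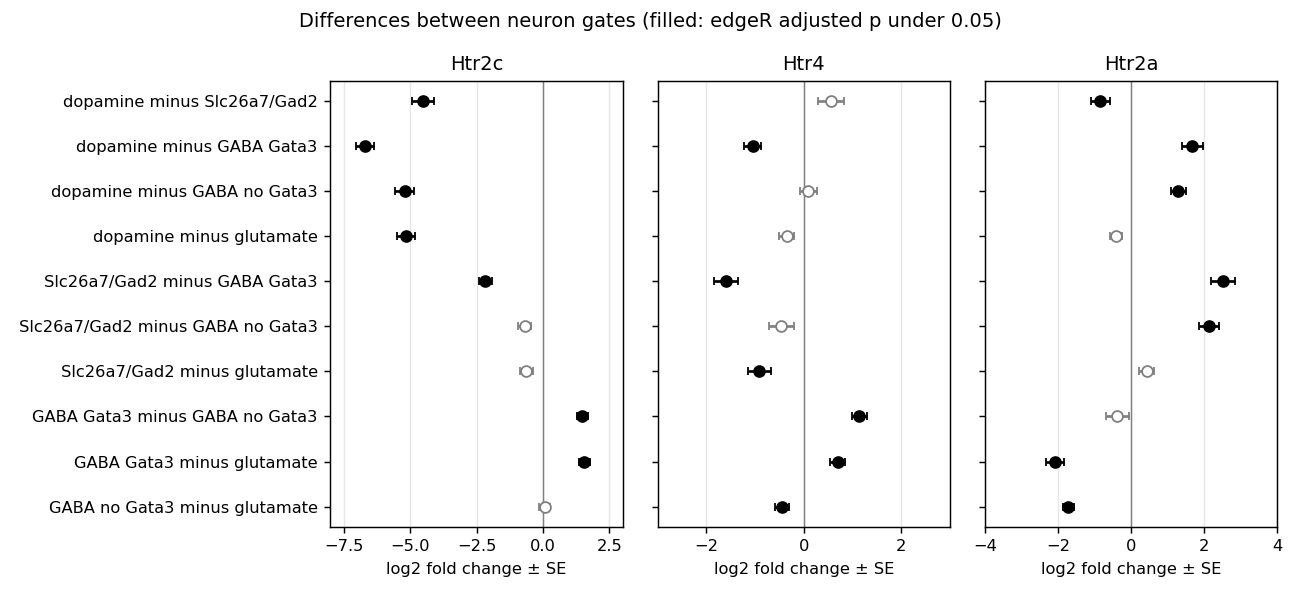
Fitted log2 fold change ± SE of Htr2c, Htr4 and Htr2a for the 10 pairs of neuron gates, over 4 libraries with the library as a block; filled points have an edgeR adjusted p under 0.05. Htr2c spans -6.69 to 1.55, while Htr4 stays within -1.60 and 1.14.

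The receptors could also be followed within a gate, nucleus by nucleus. After thinning to 2000 UMIs, Htr4 was detected more often where Htr2c was detected than where it was not, in 4 of 4 libraries of every neuron gate. In GABA nuclei without Gata3 it was found in 25.6% ± 2.31 (SD, n = 4) of nuclei with Htr2c against 14.2% ± 4.08 without, and in glutamate nuclei in 29.3% ± 2.47 against 21.7% ± 6.58. In GABA nuclei with Gata3 the shares were close, at 37.1% ± 1.35 and 34.2% ± 1.37, and 28.2% ± 2.63 of those nuclei had both receptors. The dopamine shares of 36.2% ± 15.5 and 16.4% ± 1.49 rest, on the first side, on the 20 nuclei with Htr2c. These are shares of nuclei and were not tested, and a nucleus of a mixed gate can differ in cell type as well as in receptor.

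In the Slc26a7 gate Htr2a was detected less often where Htr2c was detected. Htr2a was detected in 5.31% ± 4.87 (SD, n = 4) of Slc26a7 nuclei with Htr2c against 18.6% ± 5.75 of those without, lower in 4 of 4 libraries. It was likewise found in 2.67% ± 2.48 of Slc26a7 nuclei with Htr4 against 15.9% ± 5.29 without. In the glutamate gate the shares of Htr2a with and without Htr2c were close, at 8.39% ± 0.68 and 8.74% ± 1.58, higher with Htr2c in 2 of 4 libraries. The Slc26a7 gate holds 102 nuclei, with 17 to 33 per library. After thinning, Htr2a and Htr2c were detected together in only 0.40 to 2.26% of a library's Slc26a7 nuclei. These shares rest on very few nuclei and were not tested.

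**Figure D5:**
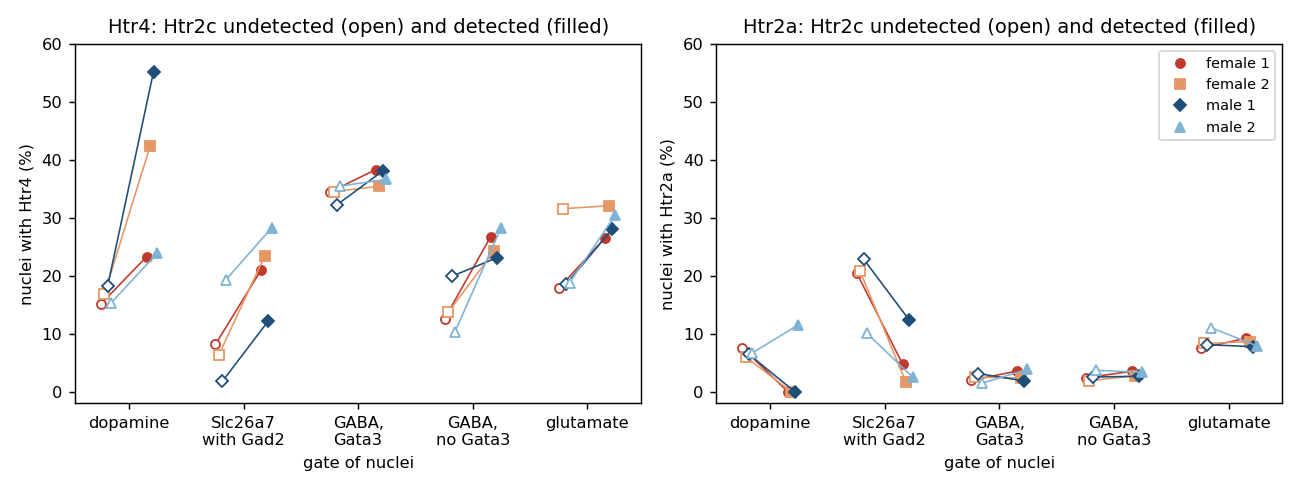
Share of nuclei (%) with Htr4 (left) or Htr2a (right) among nuclei where Htr2c was undetected (open) and detected (filled), after thinning to 2000 UMIs, per library and neuron gate. All 20 lines rise for Htr4, and the 4 lines of the Slc26a7 gate fall for Htr2a.

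The sparse receptors allow levels only. Htr1a, a Gi-coupled receptor that opens Kcnj3 and Kcnj6 potassium channels, had 24 of its 64 UMIs in other neurons, 22 in GABA nuclei without Gata3 and 13 in glutamate nuclei, with 1 in the dopamine gate and 0 in GABA nuclei with Gata3. Its mean level in GABA nuclei without Gata3 was 3.13 CPM, and an absence from 244 GABA nuclei with Gata3 allows up to 1.25 CPM (3 UMIs over the gate). Htr1b, which acts largely on axon terminals, had 13 UMIs in other neurons, 13 in glutamate nuclei, 11 in GABA nuclei without Gata3, and 1 each in the dopamine and Gata3 gates. Htr7 had 25 UMIs in glutamate nuclei, 20 in other neurons, 9 in GABA nuclei without Gata3, 6 in dopamine nuclei, 5 in GABA nuclei with Gata3, 9 in oligodendrocytes and 9 in astrocytes. All 87 Htr7 UMIs were single UMIs in a nucleus, at means of 1.07 to 2.18 CPM in the 5 neuron gates. Gates differ in size, so the UMI counts of these sparse genes do not rank the gates by level. Unthinned, a Htr7 UMI was found in 2.06% ± 1.73 (SD, n = 4) of dopamine nuclei and 2.02% ± 1.56 of GABA nuclei with Gata3. It was found in 1.62% ± 0.43 of glutamate, 1.04% ± 2.08 of Slc26a7 and 1.02% ± 0.94 of GABA nuclei without Gata3.

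Glia had little of any of the tested receptors. Htr2c was 4.4 to 6.7 CPM over the 4 oligodendrocyte sums, 2.2 to 5.4 in astrocytes, 2.3 to 25 in precursors and 0 to 8.2 in microglia, against 587 to 774 CPM in the 5 neuron gates summed. All 12 tests (3 genes in 4 glial gates, each minus the summed neuron gates) were called lower in edgeR, where 36.8% of all gene tests in these contrasts were called lower (41.1% in oligodendrocytes, 29.2% in precursors, 38.4% in astrocytes and 38.5% in microglia). Oligodendrocytes were below neurons by log2 values of -6.55 ± 0.13 for Htr2c, -7.11 ± 0.17 for Htr4 and -4.40 ± 0.19 for Htr2a (SE; edgeR adjusted p = 7.65e-38, 6.43e-35 and 1.08e-23). Microglia had the least difference for Htr4 (-4.46 ± 0.30, adjusted p = 1.38e-17), on 8 UMIs at 3.2 to 11.0 CPM. No Htr2a UMI was found in 793 microglia, at least 16.1-fold lower than neurons when set at 3 UMIs over the gate.

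The rest of the serotonin pathway was followed through lists of genes. Of 8 other receptor genes (Htr1d, Htr1f, Htr2b, Htr3a, Htr3b, Htr5a, Htr5b and Htr6) only Htr2b passed the count filter between neuron gates, and it was called higher in the dopamine gate against 3 of the other 4 gates (0.40 to 0.75 on the log2 scale). Htr2b overlaps Psmd1, a proteasome gene expressed in every cell, and had 22.3 CPM even in oligodendrocytes, so its counts are uncertain. Htr3a, a subunit of the serotonin-gated ion channel, averaged 16.7 CPM in the dopamine gate, 6.0 to 7.4 CPM in the GABA and glutamate gates and 1.1 CPM in the Slc26a7 gate. It was not tested.

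Among genes of monoamine synthesis, transport and breakdown, most of those tested were called higher in the dopamine gate, and several serve dopamine and serotonin neurons alike. Of 9 listed genes 6 were tested, and 5 were called higher and 1 lower in the dopamine gate against GABA nuclei without Gata3 (32.1% of all genes passed; list median 2.66, all genes -0.01). The 5 were Ddc (6.39 ± 0.19), Gch1 (6.12 ± 0.23), Slc18a2 (4.27 ± 0.14), Maoa (1.06 ± 0.19) and Qdpr (0.81 ± 0.25), and Maob was lower (-2.22 ± 0.24; edgeR adjusted p = 1.00e-08). Ddc and Slc18a2 are also dopamine markers, so their rise is no evidence on serotonin. Of the lineage factors that serotonin neurons use, Lmx1b averaged 106 CPM in the dopamine gate, 78.6 in the Slc26a7 gate, 32.7 in glutamate and 0 in GABA nuclei with Gata3, while Gata2 averaged 37.0 CPM in GABA nuclei with Gata3 and 0 in the dopamine gate. Lmx1b was thus not confined to nuclei with Tph2.

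Of 15 genes listed for receptor signalling, 14 were tested. The list includes Adar, Adarb1 and S100a10, which do not themselves carry a receptor's signal. In the dopamine gate against glutamate nuclei 6 were called higher and 4 lower (28.9% of all genes passed; list median -0.04, all genes near 0). Plcb1 and Plcb4, phospholipases on the Gq arm that Htr2a and Htr2c use, were higher by 1.29 ± 0.10 and 0.94 ± 0.11, and Gnaq by 0.79 ± 0.09. On the Gi arm the potassium channel gene Kcnj6 was higher by 1.93 ± 0.13, whereas Kcnj3 was lower by -1.57 ± 0.11. Adarb1, an enzyme that edits Htr2c transcripts, was lower by -1.36 ± 0.12 (edgeR adjusted p = 7.89e-11). It was called lower in the dopamine gate against all 4 other gates. GABA nuclei with Gata3 had less Plcb1 (-1.23 ± 0.13) and Plcb4 (-1.34 ± 0.13) than GABA nuclei without, and more Adarb1 (0.43 ± 0.10, adjusted p = 0.00545). Of the 14, 4 were called higher and 2 lower in that contrast, where 11.0% of all genes passed.

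Over the 20 sums of library and neuron gate, the genes whose log2(CPM + 1) was most like Htr2c were Grm5 (Pearson r = 0.96), Kcnc1 (0.96) and Spock1 (0.95), among 12216 genes. Grm5 averaged 240 CPM in the dopamine gate and 916 in GABA nuclei with Gata3, and Kcnc1 28.6 and 288 CPM. For Htr2a they were Adcyap1 (0.89), Adgrv1 (0.89) and Tfpi (0.89), and for Htr4 Spred1 (0.88), Fhad1 (0.86) and Cntn6 (0.86). With the 4 glial gates added (36 sums), likeness follows the divide of neurons from glia, and the leading genes were Mlnr (0.92), Syt2 and Hapln4 for Htr2c, Foxp2 (0.95), AABR07054490.1 and Adra1b for Htr2a, and Cntn5 (0.96) and Lhfpl5 for Htr4. The sums of a library share their tissue and depth, so these values only describe.

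Between the sexes no difference of these genes passed. Female minus male was tested on all nuclei for 8 genes (Fev failed the count filter) and in each neuron gate for the genes that passed there, 21 tests in all, with 2 libraries a sex. None had an edgeR adjusted p under 0.05, where 0.0683% of all gene tests passed, and 1 had an unadjusted p under 0.05. The share of all genes that passed was 0.0312% over all nuclei, 0.0664% in dopamine, 0.133% in Slc26a7, 0.0575% in GABA with Gata3, 0.116% in GABA without Gata3 and 0.0552% in glutamate nuclei. DESeq2 gave 0 calls, with 1 at an unadjusted p under 0.05. The lowest edgeR p was that of Slc6a4 over all nuclei (1.33 ± 0.46, log2 ± SE, adjusted p = 0.902), and Tph2 stood at 1.56 ± 0.69 (adjusted p = 0.902). Most Tph2 UMIs sit in the 11 nuclei with 2 or more, 7 of them in female and 4 in male libraries. Some of the 11, from female 2 and male 1, stood in glial gates. Htr2c in GABA nuclei with Gata3 was 0.38 ± 0.17 higher in females (adjusted p = 0.814), and became 0.57 ± 0.17 (adjusted p = 0.0417) without female 1. In the dopamine gate Htr2c failed the filter. With no filter it was called lower in females (-3.04, adjusted p = 4.02e-05), and with male 1 left out -3.78 (adjusted p = 1.11e-05), where 3 nuclei of male 2 hold 31 of the gate's 51 UMIs.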

How the data were processed

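Each deposited matrix gives raw, unscaled UMI counts by gene and nucleus barcode, per the file headers, which name software version 3.0.2. Cell Ranger and rn6 are listed in the submitters' processing notes; annotation and strand setting: not given in the sources used here. Nuclei came from frozen, detergent-lysed tissue and were flow-sorted before 10x Genomics 3' (v3) capture, per the labels. Barcodes with under 200 genes or over 5% mitochondrial UMIs were removed (6), as were the highest Scrublet scores (scanpy 1.11.5) at 0.8% per 1000 barcodes (980, or 4.54%; by its own threshold Scrublet marked 2.21%). Removal of free RNA is not mentioned by the labels.

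Gates were set on raw UMIs and made exclusive. A nucleus that met the Slc26a7 condition was kept out of the dopamine gate, and both out of the GABA and glutamate gates (18 of 323 nuclei that met the dopamine condition stand in another gate or were left out). A glial gate asked for 4 UMIs over 5 marker genes, 3 times those of any other list, and at most 2 UMIs of Rbfox3, Snap25 and Syt1 together. Other neurons had at least 4 of the latter. UMIs were summed per library and gate and tested with edgeR 4.0.16 (R 4.3.3; TMM, filterByExpr, quasi-likelihood), with Benjamini-Hochberg adjustment over all genes of a contrast; DESeq2 1.42.0 was an alternative. SE is the log2 fold change over the root of F. The fits were also run on simulated counts with a single fixed dispersion and no library effect beyond depth. That run does not speak for the spread between these libraries. Detection shares were computed after thinning each nucleus to 2000 UMIs, leaving out shallower nuclei: 0 in the dopamine, Slc26a7 and Gata3 gates, 7 in GABA without Gata3, 17 in glutamate and 3882 of 9493 oligodendrocytes.

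The 9 genes, gates and gene lists were chosen with earlier results of these data known. All 9 genes are named, listed genes where called in a contrast given in the text or where they define serotonin neurons, likeness by the 3 highest correlations among genes of at least 5 CPM in a gate, and co-detection by the 10 largest ratios. Of these, 1 gene like Htr4 is not reported here. Likeness over the neuron gates alone was added after seeing the data. Foxj1 and Pecam1 matched no gene name, and Gnas matched 2 gene IDs, of which 1 passed the filter and is counted. By RefSeq (GRCr8), Tph2 and Htr7 overlap a pseudogene, Slc6a4 and Htr4 a lncRNA, and Htr2c hosts small RNAs; reads cannot be told apart there without strand.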

Additional observations from a re-analysis of the deposited data

Results flagged for a closer look

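The Htr4 level in the glutamate gate was 234.2 CPM in female 2, set apart from the 146.8, 151.3 and 161.6 CPM of the other 3 libraries. It was the only value to stand apart among 18 groups of 4 libraries checked, and chance flags about 1 in 20 such groups. Female 2 also had the fewest glutamate nuclei, 236 against 412 to 503, and their part in this value was not tested. The highest nucleus of that library held 28 Htr4 UMIs, and without it the level was 222.6 CPM.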

How the results depend on the processing

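Between neuron gates the count of calls was 20 of 30 and ran from 17 to 26 over all alternatives: 17 with DESeq2, 26 of 80 with no filter on low counts, 19 with no replicate block, and 17 to 24 with a library left out. The added alternative, a dopamine gate also free of Slc26a7 and Gad2, made the same 20 calls. The calls lost with DESeq2 were Htr2c of GABA nuclei with Gata3 against those without and against glutamate (adjusted p = 0.0672 and 0.0554), and Htr4 of GABA nuclei without Gata3 against glutamate (0.190). The last was also lost with doublets kept and with no replicate block (0.0965 and 0.0864), and Htr2a of dopamine against Slc26a7 nuclei with overlapping gates, 3 UMIs in every gate or 1 UMI in the Slc26a7 gate (0.108, 0.0865 and 0.0761). Calls gained numbered 6 with no filter, 5 without male 2, 2 without female 1, and 1 each with overlapping gates (Htr4 of dopamine against glutamate) and with no Gad2 or Slc32a1 in the glutamate gate (Htr2a of the same pair). The direction turned in 2 cases, neither of them called: Htr4 of dopamine against GABA without Gata3 was -0.0049 with overlapping gates (adjusted p = 0.990), and Htr2a between the GABA gates was 0.013 with 3 UMIs in every gate (adjusted p = 0.995). The cause was not tested. The 12 glial calls held under every alternative, and 18 of 36 were made with no filter. By sex, the count of 0 became 1 with no filter and ran from 0 to 1 with a library left out. The labels give libraries 1 and 2 in both sexes without saying that the numbers pair them. Deviations of same-numbered libraries correlated at 0.38 over all nuclei and between -0.0057 and 0.32 in the neuron gates, and the replicate block gave 0 calls by sex, with 5 at an unadjusted p under 0.05. The mean share of nuclei with Tph2 was 0.0626% at 2 or more UMIs, 0.377% at 1 or more, 0.0505% at 3 or more, and 0.0457 to 0.0835% with a library left out. Fev, with 7 UMIs in 7 nuclei, Htr1a, with 64 in 63, and Htr1b and Htr7 were too shallow for a test between neuron gates with the filter on low counts.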
